A study of Mus musculus with 6 samples.

Results

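The genes described here are 8 markers of satellite glial cells, the glia that wrap the cell bodies of sensory neurons in the dorsal root ganglion (DRG). They are Fabp7, Kcnj10, Glul, Aatk, Apoe, Slc1a3, Slc1a2 and Gfap, chosen by gene symbol, and all 8 were found among the 45703 genes of the deposited count table. RNA sequencing had been done on 6 primary DRG cell cultures, prepared from C57BL/6 wild-type animals (mice, 4 to 6 weeks of age) and given as biological replicates of a single group, so there was no other condition to compare with. The cells grew for 7 days in DMEM/F12 medium that held 10% fetal calf serum plus 10 ng/ml EGF and FGF, and each sample combined RNA from 2 dishes. The culture was mixed and unsorted. The libraries held from 20070639 to 22968642 counts, and 3 counts corresponded to 0.131 to 0.149 CPM (counts scaled to a common library total, in the usual CPM unit).

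Satellite glia belong to the same neural crest glial lineage as Schwann cells. In the ganglion they form a sheath around each neuron, buffer the potassium released by firing, take up glutamate and convert it to glutamine, and handle lipids for the neuron. They have no single exclusive marker. Fabp7 and Kcnj10 are among the genes most used to tell them from Schwann cells, Glul and the glutamate transporters are shared with astrocytes of the brain, and Gfap is known to increase in satellite glia and Schwann cells after nerve injury. In RNA from a mixed culture, fewer cells of a type and less RNA per cell cannot be told apart.

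The 8 genes split into 6 with higher levels and a low pair of glutamate transporters. Levels between genes are compared as CPM per kilobase of combined exon length (CPM per kb). Apoe had the highest level, 254 ± 62.7 CPM per kb (SD, n = 6), followed by Aatk at 143 ± 30.7, Fabp7 at 57.9 ± 12.6, Kcnj10 at 41.6 ± 12.2, Glul at 25.3 ± 3.94 and Gfap at 18.4 ± 6.09. Slc1a3 and Slc1a2 lay far below, at 0.485 ± 0.569 and 0.211 ± 0.0930 CPM per kb. Apoe and Slc1a2 thus differed 1204-fold in mean level per kb. Apoe and Aatk together supplied 79.3% of the counts of the 8 genes. A CPM of at least 1 in all 6 libraries was reached by 6 of the 8 genes, against 30.4% of the genes in the table. Slc1a2 fell below it in replicate 5 only, at 0.860 CPM.

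**Figure D1:**
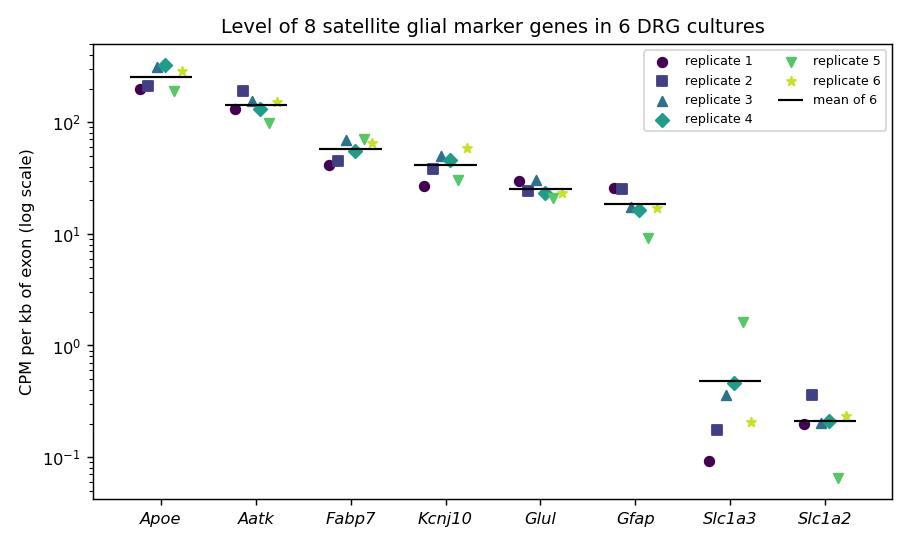
Each point is the level of a gene in 1 culture (CPM per kb of exon, log axis), and the black lines are means of 6 cultures. Apoe is highest at a mean of 254, Gfap is the sixth at 18.4, and Slc1a3 and Slc1a2 lie near or below 1, with Slc1a3 of replicate 5 apart at 1.61.

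Apoe exceeded Aatk, Aatk exceeded Fabp7, Fabp7 exceeded Kcnj10 and Gfap exceeded Slc1a3 in 6 of 6 libraries. Other neighbours changed places between cultures. Kcnj10 minus Glul averaged 0.68 ± 0.505 on the log2 scale (SD, n = 6) and was positive in 5 of 6 libraries. Glul minus Gfap averaged 0.52 ± 0.431 and was also positive in 5 of 6. Slc1a3 exceeded Slc1a2 in 3 of 6 libraries. The order of neighbours was not tested, and it depends on the length scaling. In CPM, Kcnj10 exceeded Fabp7 in every library, with means of 293 and 44.2. Mean Aatk also exceeded mean Apoe in CPM, at 1023 and 851. Among the 14998 genes kept by the filter on low counts, Apoe stood at percentiles 98.5 to 99.5 of level per kb across the libraries, Fabp7 at 89.7 to 94.4, Gfap at 56.1 to 82.1 and Slc1a2 at 0.247 to 5.21. Slc1a3 did not pass that filter.

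Apoe encodes apolipoprotein E, the lipid carrier through which glia export cholesterol. The gene lies on chromosome 7 from 19696244 to 19701310 (minus strand, GRCm38.p6) and has up to 4 exons per transcript in the GENCODE M21 basic annotation. It was measured at 660, 700, 1054, 1096, 633 and 961 CPM in replicates 1 to 6. Replicates 3, 4 and 6 were the higher cultures, and replicate 5 was the lowest. The highest library exceeded the lowest 1.73-fold. Apod, another secreted lipid carrier of peripheral nerve glia and fibroblasts, reached 139 ± 52.9 CPM per kb (SD, n = 6). Apoe exceeded Apod by 0.92 ± 0.569 on the log2 scale, with the same sign in 5 of 6 cultures (exact sign-flip permutation p = 0.0625, adjusted p = 0.0833 over 8 comparisons of this kind, of which 7 are reported). In replicate 5 the difference was -0.02. This comparison did not hold up against the spread.

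Of 11 other genes of lipoprotein handling, 10 were above 1 CPM in all libraries. The cholesterol exporter Abca1 averaged 354 ± 51.8 CPM and the lipoprotein receptor gene Lrp1 541 ± 158 CPM (SD, n = 6). Clu, which encodes the lipid carrier clusterin, averaged 10.8 ± 3.52 CPM. Apoc1, an apolipoprotein gene in the same cluster as Apoe, was at 0.267 ± 0.145 CPM, so the high level of Apoe was not shared by Apoc1. Per kb, Apod was the highest gene of this list and Apoc1 the lowest.

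Fabp7 encodes the brain type of fatty acid binding protein, a small cytosolic carrier of long-chain fatty acids. It lies on chromosome 10 from 57784923 to 57788450 (plus strand), with an exon length of 762 bases. Its values were 31.8, 34.2, 52.9, 42.3, 53.8 and 49.9 CPM in replicates 1 to 6. Replicates 1 and 2 were the low cultures, and replicate 5 was the highest, by a small margin over replicate 3. The highest library exceeded the lowest 1.69-fold.

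The epidermal type, Fabp5, was higher than Fabp7 in all 6 libraries, at 162 ± 38.3 CPM per kb (SD, n = 6). Fabp7 minus Fabp5 was -1.48 ± 0.425 on the log2 scale (exact sign-flip permutation p = 0.0312, the smallest that 6 libraries allow; adjusted p = 0.05, which is not under the threshold of 0.05). The difference shrank to -0.66 in replicate 5, where Fabp5 had its lowest level. Every library gave Fabp5 a fractional count, which can arise where reads also match other loci, so its level is less certain. Pmp2, the fatty acid binding protein of peripheral myelin, averaged 25.2 CPM per kb, below Fabp7. Of the 9 other genes of the family, 3 passed the filter on low counts, and 5 never exceeded 3 counts in a library.

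Kcnj10 encodes Kir4.1, the inward rectifier potassium channel with which satellite glia take up extracellular potassium. It lies on chromosome 1 from 172341210 to 172374085 (plus strand, 2 exons). Its values were 188, 269, 354, 324, 212 and 413 CPM in replicates 1 to 6. Replicate 6 was highest and replicate 1 lowest, with a 2.19-fold range. Replicates 1 and 5, the low cultures for this gene, were also low for Apoe.

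Kcnj16 encodes Kir5.1, a subunit that forms mixed channels with Kir4.1 in other glia. It was found at 0.170 ± 0.0686 CPM per kb (SD, n = 6), from 9 to 24 counts per library. Kcnj10 exceeded it in all 6 libraries, by 7.25 ± 0.446 on the log2 scale, about 152-fold (exact sign-flip permutation p = 0.0312, adjusted p = 0.05). Of 13 other inward rectifier genes that were listed, not the whole family, 4 never exceeded 3 counts in a library. Of the 13, 2 exceeded 1 CPM in all libraries: Kcnj2 at 3.36 ± 2.30 CPM and Kcnj12 at 5.43 ± 0.970 CPM (SD, n = 6). Kcnj15, the highest of the 13 on average, reached 42.3 CPM in replicate 5 and was at 0.479 CPM in replicate 1. The lowest library of Kcnj10, at 188 CPM, thus exceeded the highest value of any of these 13 genes.

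The glutamate genes were unequal. Glul encodes glutamine synthetase, which joins ammonia to glutamate, and lies on chromosome 1 from 153899929 to 153909723 (plus strand, 7 exons). Its values were 84.2, 68.2, 85.2, 65.1, 58.6 and 64.6 CPM in replicates 1 to 6, with replicates 1 and 3 high and replicate 5 low. This 1.45-fold range was the narrowest of the 8 genes. Counts of Glul were fractional in 4 of 6 libraries, and the overlapping microRNA gene Mir8114 on the same strand was given 7 to 21.5 counts per library.

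Slc1a3 encodes GLAST and Slc1a2 encodes GLT-1, the sodium-driven transporters that clear glutamate around glia. Slc1a3 lies on chromosome 15 from 8634124 to 8710807 (minus strand) and was counted 9, 16, 33, 39, 142 and 18 times in replicates 1 to 6, or 0.392, 0.729, 1.52, 1.94, 6.78 and 0.861 CPM. Replicate 5 stood far above the rest, and replicate 1 was lowest, a 17.3-fold range. The mean was 2.04 ± 2.39 CPM with replicate 5 and 1.09 ± 0.630 CPM without it (SD, n = 6 and 5).

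Slc1a2 lies on chromosome 2 from 102658239 to 102790784 (plus strand). It was counted 61, 104, 58, 56, 18 and 65 times, or 2.66, 4.74, 2.68, 2.79, 0.860 and 3.11 CPM. Replicate 5, the highest library for Slc1a3, was the lowest for Slc1a2. Slc1a3 minus Slc1a2 was positive in 3 of 6 cultures and averaged 0.56 ± 1.53 on the log2 scale (exact sign-flip permutation p = 0.562, adjusted p = 0.562). Without replicate 5 it was -0.0065. At the lowest level of the 3, Slc1a1, which encodes the neuronal transporter EAAC1, averaged 0.0995 ± 0.0488 CPM per kb, from 3 to 14 counts per library. Slc1a3 minus Slc1a1 averaged 1.17 ± 1.41 over all 6 libraries and was positive in 5 of them. This difference was within the spread (exact sign-flip permutation p = 0.0938, adjusted p = 0.107), and its average was 0.68 without replicate 5.

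Most of the other listed genes that move or convert glutamate and glutamine were better represented than these transporters. Of the 12 on the list, which includes Slc1a1, 8 were above 1 CPM in all libraries. Per kb the highest was Slc38a2, which encodes a glutamine transporter found in most cells, at 388 ± 43.3 CPM. The glutamate dehydrogenase gene Glud1 averaged 212 ± 10.8 CPM and the neutral amino acid transporter genes Slc1a4 and Slc1a5 averaged 63.4 ± 4.57 and 44.8 ± 8.91 CPM (SD, n = 6 for each). Slc38a3, a glutamine transporter gene of astrocytes, was at 0.0966 ± 0.0637 CPM. Slc1a6, of the same family as Slc1a3 and Slc1a2, averaged 4.76 ± 3.33 CPM. Slc7a11, the cystine-glutamate exchanger, was at 3.92 CPM in replicate 1 and at 45.4 CPM in replicate 5, the same extremes as for Slc1a3.

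Aatk encodes apoptosis-associated tyrosine kinase, a membrane-bound kinase of the lemur family that is abundant in neural tissue. It lies on chromosome 11 from 120007311 to 120047183 (minus strand, up to 14 exons). Its values were 938, 1354, 1109, 946, 700 and 1093 CPM in replicates 1 to 6. Replicate 2 was highest and replicate 5 lowest, with a 1.93-fold range. The 2 relatives were far lower: Lmtk2 averaged 35.7 ± 2.02 CPM and Lmtk3 6.24 ± 1.16 CPM (SD, n = 6). Aatk minus Lmtk2 was 4.98 ± 0.320 on the log2 scale of CPM per kb, about 31.6-fold, with the same sign in every culture (exact sign-flip permutation p = 0.0312, adjusted p = 0.05). Cdk5, a kinase gene whose product is a known partner of Aatk, averaged 61.5 ± 6.42 CPM.

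The Aatk locus also carries the microRNA gene Mir338, on the same strand and outside the exons of Aatk in the GENCODE M21 basic set. Its hairpin was counted 25, 40, 23, 29, 11 and 19 times in replicates 1 to 6, highest in replicate 2 and lowest in replicate 5, as for Aatk itself. Between these ends the order of cultures differed from that of Aatk, and the counts were few. The libraries were made from poly-A RNA and do not measure mature microRNAs. The mature sequences from RefSeq (GRCm38.p6) are shown because the hairpin lies inside Aatk, which had the second highest level per kb of the 8. The seed (bases 2 to 8) is in capitals.
mmu-miR-338-3p: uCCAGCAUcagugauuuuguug
mmu-miR-338-5p: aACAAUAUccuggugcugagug

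Gfap encodes glial fibrillary acidic protein, an intermediate filament of astrocytes and of reactive peripheral glia. It lies on chromosome 11 from 102887336 to 102897200 (minus strand). Its values were 104, 102, 70.8, 67.5, 37.3 and 70.2 CPM in replicates 1 to 6. Replicates 1 and 2 were high and replicate 5 was low, a 2.79-fold range. Vim, which encodes the filament vimentin found in most cultured cells, was far higher, at 2631 ± 540 CPM per kb (SD, n = 6). Gfap minus Vim was negative in every culture and averaged -7.20 ± 0.366 on the log2 scale (exact sign-flip permutation p = 0.0312, adjusted p = 0.05), and replicate 5 had the widest gap at -7.93. The other filament genes Nes and Synm averaged 151 and 4.94 CPM per kb, so Gfap lay between them.

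**Figure D2:**
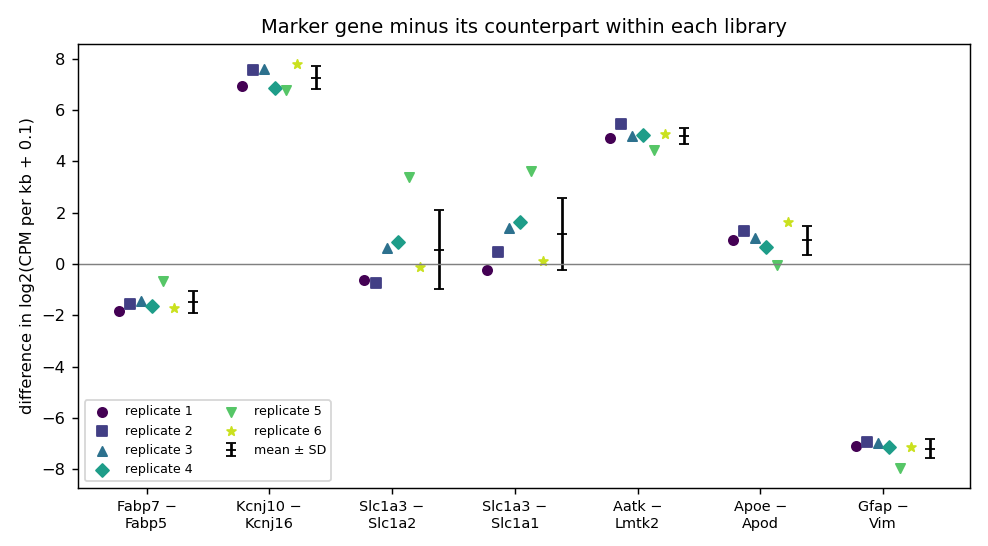
For each of 7 pairs, points give the difference in log2(CPM per kb + 0.1) between a marker and its counterpart in 1 culture, and bars give the mean ± SD of 6. Kcnj10 stands 7.25 above Kcnj16 and Gfap minus Vim averages -7.20, whereas the pairs with Slc1a3 cross 0 and are set apart by replicate 5.

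The promoter windows of 3 genes with different patterns across cultures are shown: Gfap was high in replicate 1 and low in replicate 5, Slc1a3 was the reverse, and Kcnj10 was low in both. Each run is the 250 bases before the gene's start, 5′ to 3′ on the gene's strand, from RefSeq (GRCm38.p6). Capitals mark matches on either strand to the TATA box TATAAA, the GC box GGGCGG, the CCAAT box and a pair of cores bound by Sox factors, which are ACAAAG and its variant ACAATG. The windows are chr11:102897201-102897450 (minus) for Gfap, chr15:8710808-8711057 (minus) for Slc1a3 and chr1:172340960-172341209 (plus) for Kcnj10.
Gfap: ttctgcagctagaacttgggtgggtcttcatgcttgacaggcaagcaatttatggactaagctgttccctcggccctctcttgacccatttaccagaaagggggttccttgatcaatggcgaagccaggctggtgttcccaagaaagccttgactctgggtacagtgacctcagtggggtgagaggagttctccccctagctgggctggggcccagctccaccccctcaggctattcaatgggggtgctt
Slc1a3: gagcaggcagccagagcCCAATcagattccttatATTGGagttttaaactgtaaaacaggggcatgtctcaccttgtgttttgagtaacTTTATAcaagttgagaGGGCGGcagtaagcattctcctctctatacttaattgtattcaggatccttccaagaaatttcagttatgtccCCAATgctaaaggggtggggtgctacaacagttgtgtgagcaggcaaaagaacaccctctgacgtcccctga
Kcnj10: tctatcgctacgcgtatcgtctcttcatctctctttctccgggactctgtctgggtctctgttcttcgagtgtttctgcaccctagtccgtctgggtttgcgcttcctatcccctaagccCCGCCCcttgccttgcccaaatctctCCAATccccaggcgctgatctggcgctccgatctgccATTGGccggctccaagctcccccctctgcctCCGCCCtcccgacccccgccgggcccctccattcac

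All 8 genes had a window, taken at the most upstream start that the RefSeq table gives. For Aatk, Apoe and Slc1a2 that window lies wholly or partly inside the gene span of the count table, so it does not show the bases before those genes' outermost start, while the other 5 windows precede the span. TATAAA occurred in 1 of 8 windows, that of Slc1a3, where it began 161 bases before the start, and in 12.4% of 32817 windows of all genes. GGGCGG occurred in 3 of 8 windows against 32.7% of all, and CCAAT in 4 of 8 against 33.8%. ACAAAG and ACAATG were each found in 2 of 8, against 16.5% and 10.7% of all, and the 2 windows were those of Aatk and Apoe in both cases. In these terms the windows of Gfap, Slc1a3 and Kcnj10 shared no motif in all 3, and the Gfap window held none of those searched. These matches describe the letters only.

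Variation between cultures exceeded counting noise for every gene that could be tested. A chi-square test of the 6 counts of a gene against its scaled library sizes called all 7 of the genes that passed the low-count filter, with Benjamini-Hochberg adjustment over all 14998 genes. The largest of their adjusted p-values was 1.72e-11, for Slc1a2. Since 76.3% of all tested genes were called, calls of this kind are the usual case at this depth and do not set the markers apart. Slc1a3 did not pass the filter, but without it had an adjusted p of 4.82e-61 in the same chi-square test. It was also called (adjusted p = 0.0038) when replicates 1 and 5 were both left out, an alternative chosen after the data were seen.

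The size of the variation ranged widely. The coefficient of variation (SD over mean of CPM) was 15.6% for Glul, 21.4% for Aatk, 21.7% for Fabp7, 24.7% for Apoe, 29.4% for Kcnj10, 33.1% for Gfap, 44.1% for Slc1a2 and 117% for Slc1a3. The median was 27.0% over the 8 genes, 24.7% over the 7 that passed the filter, and 12.1% over all tested genes. It was 26.4% for 13 further genes known from satellite glia and 31.8% for the tested genes of myelinating Schwann cells. Counting alone would give 0.675% for Aatk and 15.3% for Slc1a3. The biological coefficient of variation that edgeR fits to genes of similar abundance was 15.2% at the level of Glul, 15.1% at that of Gfap, 16.4% at that of Kcnj10 and 29.1% at that of Slc1a2. Glul was close to this trend, while the gene's own estimate lay above it for Gfap, at 30.8%, for Kcnj10, at 25.9%, and for Slc1a2, at 43.2%. By smaller margins it was also above the trend for Apoe (22.1% against 17.9%), Aatk (21.1% against 18.0%) and Fabp7 (19.8% against 17.3%).

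The 8 genes did not vary as a block. Each had its lowest value in replicate 1 or 5: Fabp7, Kcnj10 and Slc1a3 in replicate 1, and the other 5 genes in replicate 5. Of all tested genes, 50.0% were lowest in replicate 1 or 5. The highest values were spread over all 6 libraries. Between replicates 1 and 5, Gfap went from 104 to 37.3 CPM and Slc1a2 from 2.66 to 0.860, whereas Fabp7 went from 31.8 to 53.8 and Slc1a3 from 0.392 to 6.78. The summed CPM of the 8 genes was 2008, 2534, 2730, 2545, 1702 and 2655 in replicates 1 to 6, so it was lowest in the same 2 cultures.

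**Figure D3:**
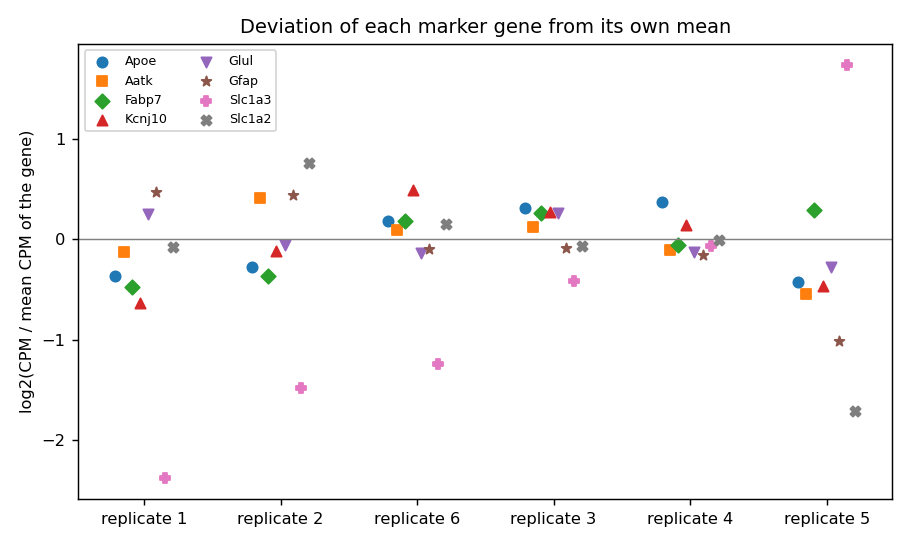
Each point is the log2 ratio of a gene's CPM in 1 culture to its mean over 6 cultures, with libraries placed in the order of their Slc1a3 level. Slc1a3 spans the widest range, Gfap and Slc1a2 have their lowest points in replicate 5, and Fabp7 of replicate 5 lies above 0.

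Likeness between 2 genes was measured as the root mean square difference of their log2 deviations from their own means over the 6 libraries. Small values stand for similar patterns, but the measure also depends on how much each gene varies. Genes that vary little reach small values more easily. The root mean square of a gene's own deviations ran from 0.198 for Glul to 0.967 for Slc1a3. The closest pair among the 28 pairs of the 8 genes was Kcnj10 and Apoe, at 0.204, followed by Slc1a2 and Gfap at 0.283 and Glul and Aatk at 0.288. The most unlike was Slc1a3 and Slc1a2, at 1.50, the transporters that are often named together. Fabp7 was closest to Apoe, at 0.343. All 7 pairs that held Slc1a3 had values of at least 0.800, which its own wide variation favours whatever the pattern. Fabp7, like Slc1a3, was lowest in replicate 1 and highest in replicate 5.

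Among 10269 genes with a mean of at least 10 CPM, the gene most like Fabp7 was Plxna2, a plexin gene (0.0555), and the gene most like Kcnj10 was Stk32a, a kinase gene (0.0619). Aatk was nearest to the laminin chain gene Lama5 (0.0520), Gfap to Acot1 (0.0610) and Glul to Abcc5 (0.0409). Apoe was nearest to Zcchc18 (0.0729), Slc1a2 to Frem2 (0.119) and Slc1a3 to the interleukin-13 receptor gene Il13ra1 (0.191). With 6 libraries and this many candidates, close matches are frequent, and the values describe these cultures only.

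Markers of other cell types moved with the libraries at the extremes. The summed CPM of 6 fibroblast genes was 1458 in replicate 1 and 10078 in replicate 5, and that of 5 endothelial genes was 6.44 and 105. All 5 endothelial genes were highest in replicate 5, but only Cdh5 was lowest in replicate 1, at 2.79 CPM. Pecam1, Kdr and Tie1 were lowest in replicates 2, 3 and 6, and Cldn5 had 0 counts in replicates 2, 3 and 6. For 8 macrophage genes the summed CPM was 15.8, 28.2, 117, 136, 167 and 42.4 in replicates 1 to 6, which is the same order of libraries as for Slc1a3. Few counts set that order for Slc1a3, with 16 and 18 in replicates 2 and 6, and 33 and 39 in replicates 3 and 4. The likeness in order was not tested. All 6 fibroblast genes and all 8 macrophage genes had their lowest value in replicate 1, against 23.8% of all tested genes. The 4 glial lineage genes, Sox10, Erbb3, Cdh19 and Foxd3, had their lowest values in replicate 5, against 26.2% of all tested genes. Their sum ranged from 2191 to 3216 CPM. Their part in the levels of Slc1a3, Gfap or the other 6 genes was not tested.

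**Figure D4:**
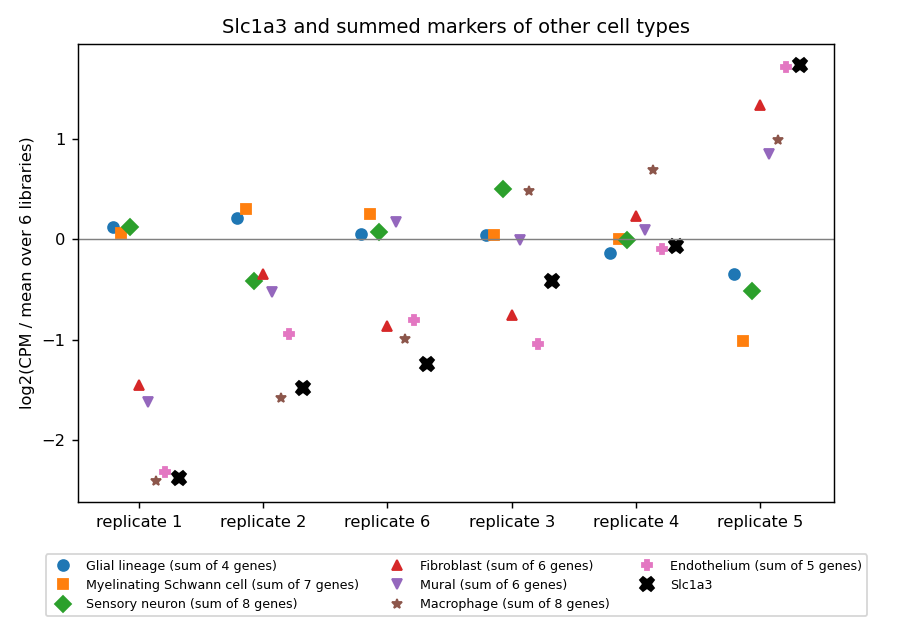
Points are log2 ratios of CPM to the mean over 6 cultures, for Slc1a3 and for the summed markers of 7 cell types, with libraries placed in the order of their Slc1a3 level. Slc1a3 and the macrophage, endothelial and fibroblast sums are lowest in replicate 1 and highest in replicate 5. The glial lineage and myelin sums are lowest in replicate 5. Single genes of the endothelial and myelin lists differ from their sums, such as Pecam1, lowest in replicate 2, and Egr2, highest in replicate 5.

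The tissue label was checked with 8 sensory neuron genes, all above 1 CPM in all libraries, with sums from 984 to 1994 CPM. The sum was highest in replicate 3 and lowest in replicate 5. The 7 genes of myelinating Schwann cells summed to between 1776 CPM in replicate 5 and 4421 CPM in replicate 2, and the 6 of repair Schwann cells to between 910 CPM in replicate 6 and 2018 CPM in replicate 1. Glul, Gfap, Slc1a2 and Slc1a3 are also markers of astrocytes, so 5 genes of central glia were examined. Aqp4, Slc6a11, Mog, Opalin and Gjb6 were each at no more than 0.239 CPM in any library, and 3 of the 5 never exceeded 3 counts.

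Further genes known from satellite glia were present throughout: all 13 on the list exceeded 1 CPM in all libraries. Lgi4, a secreted glial signal for myelination, averaged 1163 ± 242 CPM, Fads2, a fatty acid desaturase gene, 721 ± 147 CPM, and Entpd2, which encodes a nucleotide-degrading surface enzyme, 693 ± 236 CPM (SD, n = 6). The lipid carrier Dbi, at 677 ± 141 CPM, had the highest level per kb of the list, and Ppara, a lipid-sensing receptor gene, the lowest. The gap junction gene Gja1 was highest in replicate 5, at 119 CPM, against 45.8 to 73.7 CPM elsewhere. In 8 of the 13 genes the lowest value was in replicate 5, against 26.2% of all tested genes. Most of these genes are also known from Schwann cells, and in this mixed RNA the 2 cell types cannot be told apart by them.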

How the data were processed

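The authors deposited a table of estimated counts per gene, 1 column for each of 6 cultures, unscaled and with 13.4% to 14.7% of values fractional. Per the submitters' processing notes, the tools named were bcl2fastq 2.20.0.422, cutadapt 2.5, STAR 2.7.2b and featureCounts 1.6.4, with build GRCm38.p6. The strand setting and the treatment of reads with several matches are not given in the sources used here. Per the labels, libraries were stranded and poly-A selected, from 500 ng RNA with integrity numbers of at least 8.7 and 15 PCR cycles. All 45703 gene identifiers matched RefSeq, and 0 further columns of sample values were present.

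CPM used library totals and CPM per kb the deposited exon length. Counts were rounded for edgeR 4.0.16 (filterByExpr, TMM) and DESeq2 1.42.0 in R 4.3.3. The chi-square test had 5 degrees of freedom and a threshold of 0.05 on the adjusted p. Pairs were tested on log2(CPM per kb + 0.1) by two-sided exact sign-flip permutation over 64 sign patterns, with Benjamini-Hochberg adjustment over 8 pairs. Likeness used TMM-scaled log2(CPM + 0.5). Both tests were run on simulated data. For the chi-square test these held counting noise only, apart from genes raised on purpose, and for the pair test normally distributed differences. The wider variation between the real cultures was not simulated, so the check does not cover it. None of the 15 pairs of libraries was identical.

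The 8 genes and the gene lists were chosen with earlier results of these data known. Named genes were the 8, their counterparts, by default the highest and lowest gene of each list, and the nearest patterns, of which only the first of 3 per gene is printed. Other list genes were named after their values were seen, as were the promoter motifs and Mir338. The values of 1 pair and of some list genes are not reported here, although they count in the adjustment and in the list totals.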

Additional observations from a re-analysis of the deposited data

Results flagged for a closer look

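Dixon's ratio, the distance of the highest or lowest culture to the next one as a share of the whole range, was computed for 16 measures (the CPM of the 8 genes and the 8 pair differences). Its critical value for 6 samples is 0.625. About 1 in 20 such groups passes it by chance, or 0.8 of 16, and 3 passed it here, each through replicate 5. The CPM of Slc1a3 was 6.78 in replicate 5 and at most 1.94 in the others, a ratio of 0.757. Fabp7 minus Fabp5 was -0.66 in replicate 5 and at most -1.44 in the others (log2 CPM per kb, ratio 0.657). Gfap minus Vim was -7.93 in replicate 5 and at least -7.13 in the others (ratio 0.808).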

How the results depend on the processing

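No paired analysis was possible because all samples belong to 1 group. The number of the 8 genes called by the chi-square test was 7, and 7 or 8 under every alternative run, including DESeq2 size factors, library totals, no low-count filter and each replicate left out. Of 225 alternative values for levels, the 7 pairs and this number, 216 kept their direction and side of the threshold or moved by less than the spread. Much of this tally was fixed in advance. Leaving out replicates cannot move a mean level by as much as its SD, nor bring a pair under the threshold. The tally is therefore no measure of stability. With a pseudocount of 1, the mean log2 level became 0.50 for Slc1a3 (-1.19 with 0.1) and 0.27 for Slc1a2 (-1.75), because a larger pseudocount lifts low values. Without length scaling, the differences were -1.80 for Fabp7 minus Fabp5, 8.56 for Kcnj10 minus Kcnj16, 4.81 for Aatk minus Lmtk2, 1.61 for Apoe minus Apod and -6.05 for Gfap minus Vim, each then with an adjusted p of 0.0417 (exact sign-flip permutation), since Apoe then exceeded Apod in all libraries and 6 pairs shared the smallest p. The sign turned for Slc1a3 minus Slc1a2 (-0.87). With single replicates left out, Slc1a3 minus Slc1a2 lay between -0.0065 (without replicate 5) and 0.82, and the mean CPM of Slc1a3 between 1.09 (without replicate 5) and 2.37. With 5 libraries the smallest possible p of the pair test is 0.0625, so those fits say nothing about stability of its calls. Depth limits Slc1a3, Slc1a2, Slc1a1 and Kcnj16, which had few counts.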
